A study of Mus musculus with 21 samples.

Results

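A set of 10 core genes of the circadian clock was followed in the mouse right lung as it grew after left pneumonectomy, and 9 of the 10 could be measured. They are Arntl, Clock, Per1, Per2, Per3, Cry1, Cry2, Nr1d1 and Nr1d2, each read by 1 probe set that carries its symbol in the platform annotation. No probe set carried the symbol of the tenth, Npas2, which is not analysed here. The 9 genes stand among 19938 genes that had a probe set with a single symbol.

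The clock is a feedback loop of transcription that runs in most cells of the body, the lung included. ARNTL (also called BMAL1) pairs with CLOCK or NPAS2 and binds E-box sequences to switch on the Per and Cry genes, whose proteins return to the nucleus and block the pair. The same pair switches on Nr1d1 and Nr1d2, which encode REV-ERB alpha and beta, and these repress Arntl through a response element for REV-ERB and ROR proteins. The mRNA of Arntl therefore peaks at about the opposite time of day from that of Per2, Per3, Nr1d1 and Nr1d2, and Cry1 peaks later than the other repressors.

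Left pneumonectomy leaves the mouse with the right lung, which then grows. The arrays came from male C57BL/6 mice under 7 conditions: day 0, before any surgery; days 3, 7, 14, 28 and 56 after left pneumonectomy; and day 56 after a sham operation. Each condition had 1 medial lobe array, 1 cardiac lobe array and 1 array of the entire right lung, so n = 3 arrays per condition and 21 in all. The 3 arrays of a condition are regions rather than labelled replicate animals, the labels do not say whether they share animals or pools, and the p-values measure the spread between these arrays. The labels also give no hour of tissue collection, so a condition and the hour at which its lungs were taken cannot be told apart for genes that cycle over the day. In RNA from whole tissue, fewer cells of a type and less RNA per cell cannot be told apart.

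All values are log2 intensities after robust multi-array averaging (RMA), so a difference of 1 is a doubling, and levels are compared between arrays and never between genes. The 21 arrays had medians of 5.98 to 6.18, and any pair correlated at 0.963 to 0.996 over all probe sets. The 10 lung epithelial and endothelial markers averaged 11.56 to 12.12 per array. None of the 10 passed the test among the 7 conditions, which 7.76% of all genes passed. At day 3, 1 of the 10 was lower than at day 0 at an adjusted p under 0.05 in limma, as were 2.73% of all genes. The median difference of the 10 was then -0.23. On 2 arrays, the day 7 cardiac lobe and the day 56 pneumonectomy whole lung, 59 genes for small RNAs averaged 8.15 and 9.84. Their averages were 6.90 to 7.48 on the other lobe arrays and 7.77 to 9.0 on the other whole lung arrays. The highest of these other whole lung arrays was day 14, followed by sham at 8.86 and then day 7 at 8.31. The day 14 and sham lobe arrays lay within the lobe range just given. Results resting on the day 7 cardiac lobe and day 56 pneumonectomy whole lung arrays are also given without those 2 arrays.

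Promoter sequences of the members were read from RefSeq on the mouse assembly GRCm38.p6, which held a window for 9 of the 10 listed genes (none for Per2). Each window ran from 250 bases before to 50 bases after a transcription start and was searched on both strands for 5 motifs. They were the E-box CACGTG, the variant E-box CACGTT, the D-box TTANGTAA, the core TAGGTCA or TGGGTCA of the REV-ERB and ROR element, and the cyclic AMP element TGACGTCA. These letters stood in 7.15%, 4.68%, 2.32%, 6.45% and 1.79% of all 32851 windows. Sequences of 4 genes are shown because each holds an element of the loop or of its outputs (the D-box is bound by DBP, TEF, HLF and NFIL3), with the match in capitals and the first 3 running over the 250 bases before the start.
Per1 promoter, chr11:69098699-69098948, plus strand, E-box: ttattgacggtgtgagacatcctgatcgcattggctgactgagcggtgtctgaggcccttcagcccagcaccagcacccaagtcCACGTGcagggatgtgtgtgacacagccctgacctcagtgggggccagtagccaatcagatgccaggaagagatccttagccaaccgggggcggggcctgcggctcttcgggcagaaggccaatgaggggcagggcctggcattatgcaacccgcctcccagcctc
Per3 promoter, chr4:151044666-151044915, minus strand, 2 D-boxes: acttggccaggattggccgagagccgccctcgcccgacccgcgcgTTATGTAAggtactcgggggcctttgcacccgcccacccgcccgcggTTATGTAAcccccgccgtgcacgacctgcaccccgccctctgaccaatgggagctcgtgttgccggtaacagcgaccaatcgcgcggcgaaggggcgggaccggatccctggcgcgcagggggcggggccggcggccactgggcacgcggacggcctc
Nr1d1 promoter, chr11:98775378-98775627, minus strand, variant E-box read on the opposite strand: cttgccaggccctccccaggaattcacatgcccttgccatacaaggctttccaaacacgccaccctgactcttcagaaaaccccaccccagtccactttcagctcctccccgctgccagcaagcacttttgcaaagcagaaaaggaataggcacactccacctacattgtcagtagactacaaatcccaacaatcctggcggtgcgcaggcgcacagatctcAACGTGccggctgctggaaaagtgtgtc
Arntl, chr7:113207530-113207559, plus strand, 30 bases around the REV-ERB and ROR core: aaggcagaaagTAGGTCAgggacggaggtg
Counted from the transcription start, the Per1 E-box began at -166, the Per3 D-boxes at -205 and -158, and the Nr1d1 element at -28. The Arntl core began at 31, just after the start. Cry1 held an E-box at -60 and a variant E-box at -79, and Cry2 held a variant E-box at -166. The windows of Clock, Nr1d2 and Npas2 held none of the 5 motifs. A match describes these letters only and is not evidence of binding.

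Arntl was highest, and Per2, Per3 and Nr1d2 were lowest, under 2 conditions that differ in both surgery and time, day 14 after pneumonectomy and day 56 after sham surgery. Nr1d1 was low under both, but about as low at day 7 (mean 10.59) as at day 14 (mean 10.54). Per2 and Per3 were also called lower than day 0 at days 3 and 7, by less. Against day 0, no clock gene was called at day 28 after pneumonectomy, when 0% of all genes were called. None was called at day 56 either, when 0.0903% of all genes were. Per2 differed from day 0 by -0.80 ± 0.18 (SE) at day 28, about as much as at day 7 (-0.78), where it was called. Of the 9 members, 7 differed among the 7 conditions at a Benjamini-Hochberg adjusted p under 0.05 in limma's moderated F test with region as a term, against 7.76% of all genes. Among the 5 days after pneumonectomy alone, 7 of the 9 again passed, against 5.41% of all genes. Clock and Per1 did not pass either test, with adjusted p of 0.057 and 0.29 over the 7 conditions and 0.17 and 0.41 over the 5 days. Arntl had the smallest p of all 19938 genes in both tests (limma adjusted p 4.2e-07 and 7.3e-06).

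**Figure D1:**
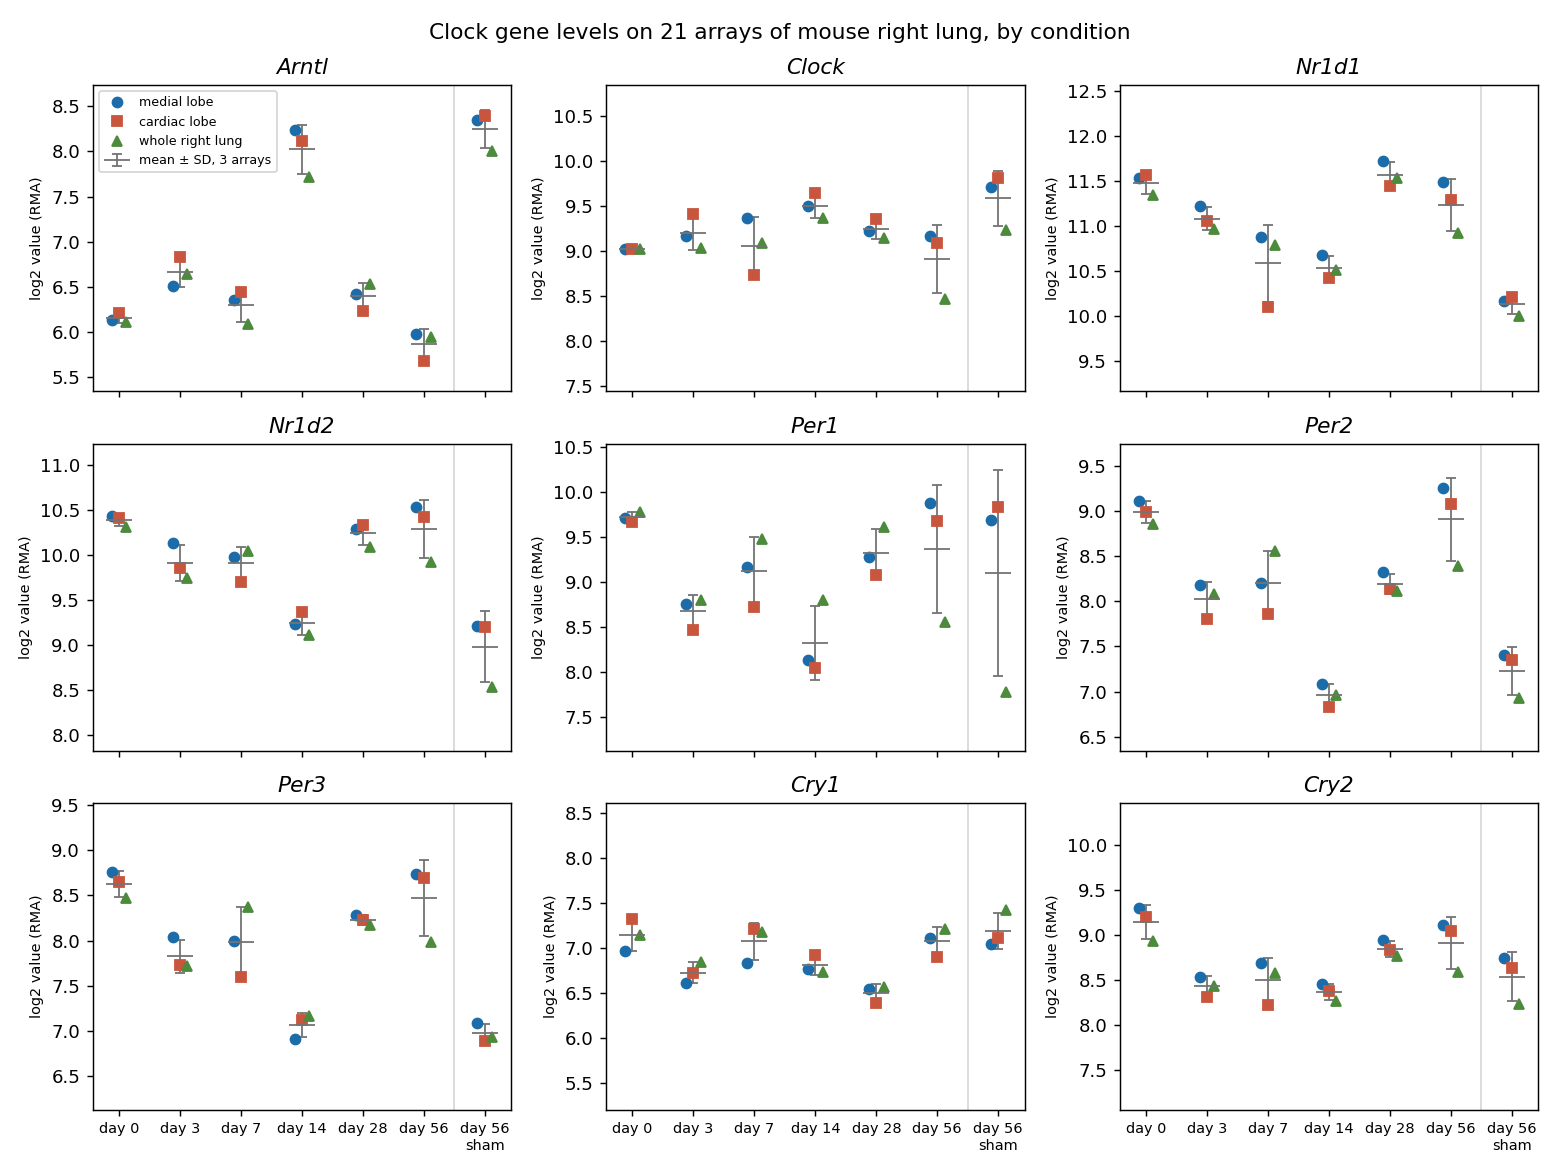
Log2 RMA value (vertical axis) of each of the 9 clock genes in every array, by condition (horizontal axis) and region (marker). Arntl is above 7.7 in all 3 regions at day 14 and after sham surgery and below 6.9 on every other array, while Per2 and Per3 are at their lowest under those same conditions.

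Arntl encodes the activator on which the loop depends. Before surgery its log2 level was 6.13 in the medial lobe, 6.21 in the cardiac lobe and 6.11 in the whole lung. At day 14 after pneumonectomy it was 8.23, 8.11 and 7.72 in the same order, and at day 56 after sham surgery 8.35, 8.40 and 8.01. The 6 arrays of day 14 and sham did not overlap with any of the other 15. On those others the level was 6.50, 6.83 and 6.64 at day 3, and 6.35, 6.44 and 6.09 at day 7. It was 6.41, 6.23 and 6.53 at day 28 and 5.98, 5.68 and 5.95 at day 56, so the lowest array was the day 56 cardiac lobe. Sham exceeded day 14 by less than their spread, the ranges of days 3, 28, 7 and 0, in descending order of their means, each overlapped the next, and day 0 lay above day 56.

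Against day 0, Arntl rose at day 14 by 1.87 ± 0.14 (SE; 3.66-fold; limma adjusted p 8.3e-06) and after sham surgery by 2.10 ± 0.14 (4.29-fold; adjusted p 1.5e-06). It was the gene with the smallest p in both of those comparisons. At day 3 the difference was 0.51 ± 0.14 (adjusted p 0.035), higher in all 3 regions. That day 3 call was lost without any 1 of the 3 day 0 arrays or of the day 3 cardiac lobe and whole lung arrays. Differences at days 7, 28 and 56 were 0.15, 0.24 and -0.28, with adjusted p of 0.47, 0.74 and 0.36.

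Clock encodes the partner of ARNTL, and its mRNA is known to cycle less. Its level was 9.02, 9.03 and 9.02 (medial, cardiac, whole) at day 0 and 9.50, 9.64 and 9.37 at day 14. After sham surgery it was 9.71, 9.81 and 9.23. Day 14 and sham had the highest means, 9.50 ± 0.14 and 9.59 ± 0.31 (SD, n = 3), and both ranges lay above that of day 0. Days 3 and 28 also lay above day 0, and days 7 and 56 overlapped it. Those days ran from 8.48 in the day 56 whole lung to 9.41 in the day 3 cardiac lobe. The sham range overlapped those of days 3, 7 and 28. Differences against day 0 of 0.48 at day 14 and 0.56 after sham did not pass the test (adjusted p 0.20 and 0.17). Without the day 7 cardiac lobe array alone both of these passed, as they did without the 2 arrays of divergent small RNA level.

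Per2, a repressor induced by ARNTL and CLOCK, ran the other way. Its level was 9.11, 8.99 and 8.86 at day 0, then 7.08, 6.83 and 6.96 at day 14 and 7.41, 7.35 and 6.93 after sham. Intermediate values were 8.18, 7.80 and 8.08 at day 3, 8.20, 7.86 and 8.56 at day 7, and 8.32, 8.14 and 8.12 at day 28. At day 56 after pneumonectomy it was 9.26 and 9.08 in the lobes and 8.39 in the whole lung. All 6 arrays of day 14 and sham were therefore below the other 15, and day 56 overlapped day 0.

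Against day 0, Per2 fell at day 14 by 2.03 ± 0.18 on the log2 scale (4.09-fold; adjusted p 5.6e-05) and differed by -1.76 ± 0.18 after sham surgery (3.38-fold lower; adjusted p 0.00020). It also fell at day 3 by 0.97 ± 0.18 (adjusted p 0.0044) and at day 7 by 0.78 ± 0.18 (adjusted p 0.019). The day 7 call was lost without the day 0 cardiac, day 0 whole lung, day 7 medial or day 7 cardiac array. At day 28 the difference of -0.80 did not pass (adjusted p 0.28), and at day 56 it was -0.08.

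Per3, the third Period gene, followed nearly the same order. It was 8.76, 8.65 and 8.47 at day 0, 6.91, 7.12 and 7.17 at day 14, and 7.09, 6.89 and 6.93 after sham. Day 14 and sham overlapped, and no array of another condition was as low, the nearest being 7.59 in the day 7 cardiac lobe. Per3 was 8.04, 7.73 and 7.71 at day 3, 7.99, 7.59 and 8.37 at day 7, 8.28, 8.22 and 8.17 at day 28, and 8.73, 8.69 and 7.99 at day 56. It was lower at day 14 (difference -1.56 ± 0.18) and after sham (-1.66 ± 0.18) (adjusted p 0.00087 and 0.00031). At day 3 it fell by 0.80 (adjusted p 0.015), a call lost without the day 0 medial, day 0 cardiac, day 3 cardiac or day 3 whole lung array. At day 7 the difference was -0.64 (adjusted p 0.043), and 14 of the 21 single arrays ended that call when left out.

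Per1 is induced by glucocorticoids as well as by the loop, and its whole lung values did not follow those of the lobes. The level was 9.71, 9.66 and 9.78 at day 0, 8.75, 8.46 and 8.80 at day 3, 9.16, 8.72 and 9.48 at day 7, 8.13, 8.04 and 8.79 at day 14, and 9.27, 9.07 and 9.61 at day 28. At day 56 after pneumonectomy it was 9.87 and 9.67 in the lobes but 8.55 in the whole lung, and after sham surgery 9.69 and 9.82 in the lobes but 7.78 in the whole lung. The sham SD was thus 1.14, and no difference of Per1 passed the test over the 3 regions. In the 2 lobes alone Per1 fell against day 0 by 1.08 at day 3, by 0.74 at day 7 and by 1.60 at day 14 (limma adjusted p 0.0044, 0.016 and 0.00054). The sham lobes differed from day 0 by 0.07 (adjusted p 1), on arrays where Per2 and Per3 were low. Leaving out the sham whole lung array alone gave Per1 calls at days 3 and 14 against day 0 (adjusted p 0.042 and 0.025).

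Cry1 encodes the repressor whose mRNA peaks latest, and it took neither order. Its level was 6.97, 7.32 and 7.15 at day 0, 6.77, 6.93 and 6.74 at day 14, and 7.04, 7.11 and 7.42 after sham. The lowest condition was day 28 with 6.55, 6.40 and 6.57, below every array of the other 6 conditions. Cry1 passed the F test over the 7 conditions (adjusted p 0.0045). It was lower than day 0 at day 3 by 0.42 (adjusted p 0.035), a call lost when any 1 of the day 0 or day 3 arrays was left out. The day 28 difference from day 0 was -0.64 ± 0.11 (adjusted p 0.12), in a comparison in which no gene of the array passed.

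Cry2, the other Cryptochrome, was highest before surgery. It read 9.30, 9.19 and 8.94 at day 0, 8.54, 8.32 and 8.44 at day 3, 8.68, 8.22 and 8.58 at day 7, and 8.45, 8.37 and 8.27 at day 14. It was 8.94, 8.83 and 8.77 at day 28, 9.11, 9.05 and 8.58 at day 56, and 8.75, 8.64 and 8.23 after sham. Days 3, 7 and 14 and sham lay wholly below day 0, while days 28 and 56 overlapped it. It fell by 0.71, 0.65 and 0.78 at days 3, 7 and 14 (adjusted p 0.0018, 0.0056 and 0.0039; each SE 0.12). The sham difference of -0.60 passed (adjusted p 0.037), and 16 of the 21 single arrays ended that call when left out.

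Nr1d1, encoding REV-ERB alpha, the repressor of Arntl, was 11.53, 11.57 and 11.34 at day 0 and 11.22, 11.06 and 10.97 at day 3. It was 10.87, 10.10 and 10.79 at day 7, 10.68, 10.42 and 10.51 at day 14, and 10.17, 10.21 and 10.01 after sham. At day 28 it stood at 11.72, 11.45 and 11.53 and at day 56 at 11.49, 11.29 and 10.92. Sham was lowest, overlapping day 7 only through the day 7 cardiac lobe, and day 28 overlapped day 0. Nr1d1 was lower at day 7 (-0.89), day 14 (-0.94) and after sham (-1.35) (each SE 0.15; limma adjusted p 0.0025, 0.0039 and 0.00024). Without the 2 arrays of divergent small RNA level the day 7 difference was -0.66 (adjusted p 0.0012). The day 3 difference of -0.40 did not pass (adjusted p 0.13), and it passed without the day 7 cardiac lobe array.

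Nr1d2, encoding the related REV-ERB beta, was 10.43, 10.41 and 10.31 at day 0 against 9.24, 9.37 and 9.12 at day 14 and 9.22, 9.20 and 8.53 after sham. The remaining conditions ran from 9.71 in the day 7 cardiac lobe to 10.53 in the day 56 medial lobe. Day 14 and sham were therefore below all other arrays. It fell by 1.14 ± 0.14 at day 14 and by 1.40 ± 0.14 after sham (adjusted p 0.00094 and 0.00016). At day 7 the difference was -0.48 (adjusted p 0.047), a call that 17 of the 21 single arrays ended when left out. At day 3 it was -0.47 and did not pass (adjusted p 0.058), but it passed without the day 7 cardiac, day 7 whole, day 56 pneumonectomy whole or sham whole lung array.

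**Figure D2:**
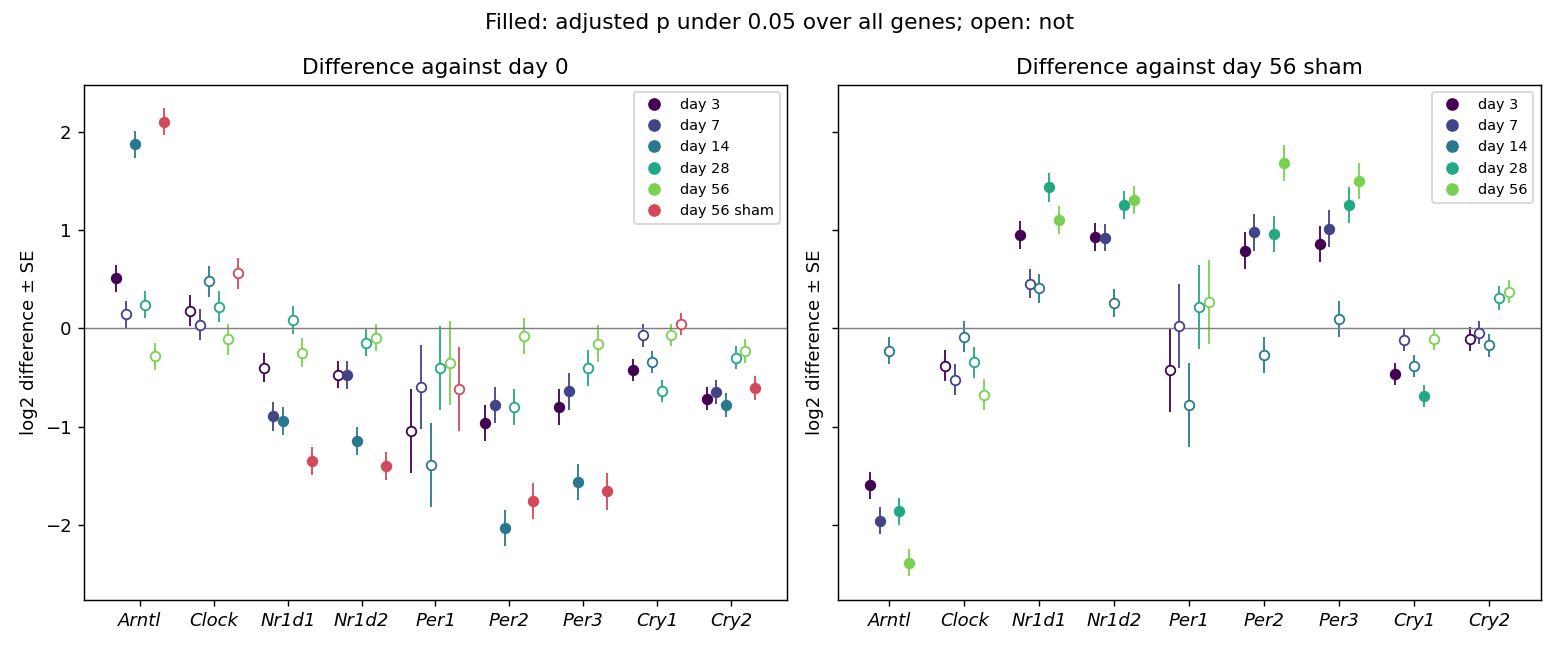
Log2 difference of each clock gene (horizontal axis) against day 0 (left) and against day 56 sham (right), with the limma standard error; filled points passed an adjusted p under 0.05. Against day 0 the day 14 and sham points of Arntl lie near 2 and those of Per2 and Per3 below -1.5. No day 28 or day 56 point passed against day 0, where 0% and 0.0903% of all genes did.

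Counted over the members, 5 of 9 were called at day 3 against day 0, where 6.7% of all genes were called: 1 was higher (3.97% of all genes) and 4 lower (2.73%). At day 7, 5 of 9 were called (8.69% of all genes), all of them lower (4.97%). At day 14, 6 of 9 were called (1.2% of all genes), 1 higher (0.497%) and 5 lower (0.707%). After sham surgery 6 were called (0.381% of all genes), again 1 higher (0.176%) and 5 lower (0.206%). The median difference of the 9 members was -0.47, -0.60, -0.94 and -0.62 in those comparisons, and that of all genes lay between 0.01 and 0.03. These comparisons share the day 0 arrays.

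Some of these counts moved with 1 array. The day 3 count was 2 without the day 0 medial, day 0 cardiac, day 3 cardiac or day 3 whole lung array and 3 without the day 0 whole lung array. The day 7 count was 2 without the day 0 cardiac, day 0 whole lung, day 7 medial or day 7 cardiac array. It was 3 without the day 0 medial array, any of the day 28 arrays, or the sham medial, day 3 cardiac, day 3 whole lung or day 14 cardiac array. It was also 3 without the 2 arrays of divergent small RNA level. The day 14 count stayed at 6 to 7 and the sham count at 5 to 7 whichever array was left out.

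Against day 0, no member was called in limma at day 28, when 0% of all genes were called, or at day 56 after pneumonectomy, when 0.0903% were. At an unadjusted p under 0.05 there were 4 members at day 28 (Cry1, Cry2, Per2 and Per3) and 0 at day 56. Without the 2 arrays of divergent small RNA level Cry1 and Per2 were called at day 28 and none at day 56.

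The days after pneumonectomy were also set against sham surgery. Of the 9 members 6 were called at day 3 (7.67% of all genes), 4 at day 7 (4.52%), 0 at day 14 (0.0652%), 6 at day 28 (0.186%) and 5 at day 56 (0.336%). Those higher than in sham numbered 4 at day 3 (4.46% of all genes), 3 at day 7 (2.37%), 4 at day 28 (0.0451%) and 4 at day 56 (0.0702%). Those lower numbered 2 (3.21%), 1 (2.15%), 2 (0.14%) and 1 (0.266%), and Arntl was lower on each of those days. These comparisons share the sham arrays. At the matched day 56, Arntl was lower after pneumonectomy by 2.38 ± 0.14 on the log2 scale (log2 difference -2.38; 5.22-fold; adjusted p 2.4e-07), and no gene had a smaller p. Per2, Per3, Nr1d2 and Nr1d1 were higher by 1.68, 1.50, 1.31 and 1.10 (adjusted p 0.00024, 0.00067, 0.00024 and 0.0014). Without the day 56 pneumonectomy whole lung and day 7 cardiac arrays, Arntl differed by -2.47 and Per2 by 1.92, and 7 members were called, Clock and Cry2 being added.

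At day 14 no member differed from sham in limma at an adjusted p under 0.05, and at an unadjusted p under 0.05 Cry1 and Nr1d1 did. Arntl differed by -0.23 ± 0.14, Per2 by -0.27 ± 0.18, Per3 by 0.10 ± 0.18, Nr1d2 by 0.26 ± 0.14 and Nr1d1 by 0.41 ± 0.15. In the lobes alone Per1 was lower at day 14 than in sham by 1.67 on the log2 scale (log2 difference -1.67; adjusted p 0.0011). Without the 2 arrays of divergent small RNA level Nr1d1 was called. At day 28 Cry1 was below sham by 0.69 (log2 difference -0.69; adjusted p 0.017), a call lost without any 1 of the 3 sham arrays or the day 28 cardiac or whole lung array. Without the sham cardiac array 3 members rather than 6 were called at day 28.

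Between successive days after pneumonectomy, members were called at 2 steps. From day 7 to day 14, 4 of 9 were called, against 0.727% of all genes (0.216% higher, 0.512% lower). Arntl rose by 1.73, and Per2, Per3 and Nr1d2 fell by 1.25, 0.92 and 0.67 (adjusted p 2.7e-05, 0.013, 0.034 and 0.044). That count was 1 without the day 14 cardiac array. It was 2 without the day 7 medial, day 7 whole, day 14 medial, day 14 whole, day 28 cardiac, day 28 whole or sham medial array. From day 14 to day 28, 5 of the 29 genes called on the whole array were members, 0.145% of all genes being called (0.0451% higher, 0.1% lower). Arntl fell by 1.63 ± 0.14 (adjusted p 6.1e-05), and Per2, Per3, Nr1d1 and Nr1d2 rose by 1.23, 1.16, 1.03 and 1.0 (adjusted p 0.0078, 0.015, 0.0077 and 0.0077). That count was 1, Arntl, without the day 14 medial or day 14 cardiac array, and 3 without the day 28 cardiac array.

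From day 3 to day 7 and from day 28 to day 56 no member was called in limma (0.0652% and 0% of all genes). At an unadjusted p under 0.05 the counts were 3 and 4. Arntl differed by -0.36 and -0.52 over those steps, and Cry1 by 0.35 and 0.57.

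**Figure D3:**
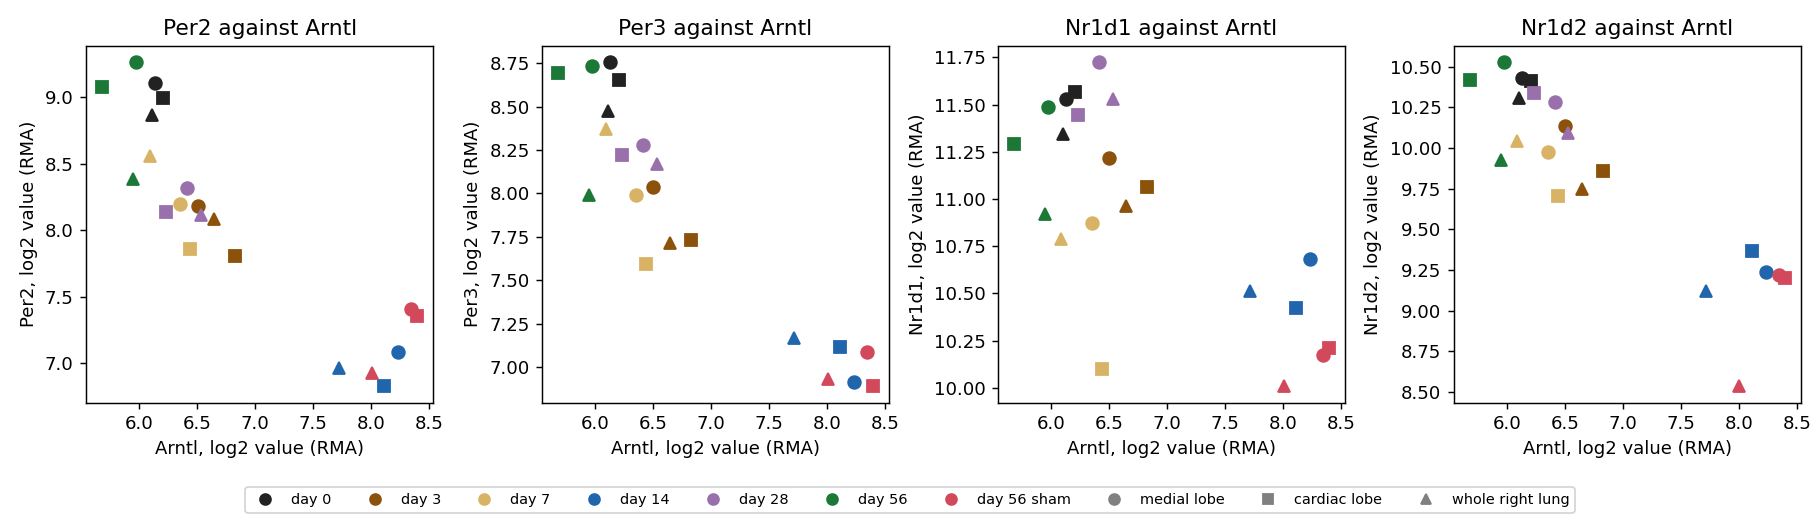
Log2 level of clock genes (vertical axes) against that of Arntl (horizontal axis) over the 21 arrays, with markers for region. The 6 arrays of day 14 and sham, at Arntl levels of 7.72 to 8.40, form a group of their own, which has low Per2, Per3 and Nr1d2.

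The 3 regions gave similar courses for most members. Arntl was highest at day 14 and after sham in each of them. Over the 7 conditions, Nr1d1 correlated between pairs of regions at 0.82 to 0.96, Nr1d2 at 0.87 to 0.96, Per2 at 0.83 to 0.99 and Per3 at 0.79 to 0.96. These values describe 7 points each, the low values at day 14 and after sham enter them, and a whole right lung includes both lobes. Cry1 correlated at 0.70 to 0.88, Cry2 at 0.64 to 0.94 and Clock at 0.49 to 0.63. Per1 correlated at 0.97 between the lobes but at -0.06 and -0.19 between the whole lung and the medial and cardiac lobes.

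No member passed limma's test between the cardiac and medial lobes (0 of 9, with 0.0903% of all genes called and 1 member, Nr1d1, at an unadjusted p under 0.05). Between the mean of the lobes and the whole lung, 3 of 9 members were called, near the 29.1% of all genes called. Those 3 were higher in the lobes (20.3% of all genes), Nr1d2 by 0.26, Clock by 0.25 and Cry2 by 0.20 (limma adjusted p 0.026, 0.047 and 0.039). In that comparison 5 of the 10 lung epithelial and endothelial markers and 4 of the 8 T and NK cell markers were also called higher in the lobes. Their part in it was not tested. The member count fell to 0 without the sham whole or day 56 pneumonectomy whole lung array. It was 1 without the cardiac array of day 0, 14, 28, 56 or sham, the medial array of day 7, 56 or sham, or the whole lung array of day 14 or 28. With quantile normalization between arrays it was 0. The change from days 3 and 7 to days 14, 28 and 56 was compared between regions by an interaction term. No member was called, for the cardiac against the medial lobe or for the whole lung against the lobes (0% of all genes in each, and 0 members at an unadjusted p under 0.05). The later phase pools day 14 with days 28 and 56, whose Arntl levels differ widely, and this adds to the spread. For Arntl the SE was 1.05 and 0.91 in the 2 interactions. They could therefore hardly detect a regional difference in that gene.

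Agreement of opposite-phase members was judged within each region, where the 7 conditions give 21 pairs of conditions. The 12 antiphase gene pairs set Arntl or Clock against Per1, Per2, Per3, Cry2, Nr1d1 or Nr1d2, and 11 in-phase pairs lay within the activators or among the Per and Nr1d genes. Antiphase genes moved in opposite directions in 206 of 252 comparisons in the medial lobe (81.7%), 190 in the cardiac lobe (75.4%) and 182 in the whole lung (72.2%). In-phase genes did so in 42 of 231 (18.2%), 50 (21.6%) and 36 (15.6%). The 21 pairs of conditions share arrays and so are not independent. Many of them set day 14 or sham against another condition. The counts for Arntl therefore partly restate its split of day 14 and sham from the rest.

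Arntl and Per2 moved oppositely in 19 of 21 condition pairs in the medial lobe, 20 in the cardiac lobe and 18 in the whole lung. For Arntl and Nr1d2 the counts were 19, 20 and 16, and for Arntl and Per3 they were 17, 20 and 17. Arntl and its repressor Nr1d1 moved oppositely in 16, 16 and 14. Arntl and its partner Clock moved oppositely in 4 of 21 in each region. Per3 and Nr1d2 moved oppositely in 2, 0 and 1. Cry1 opposed Arntl in 13, 10 and 13 and Nr1d1 in 13, 14 and 15.

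**Figure D4:**
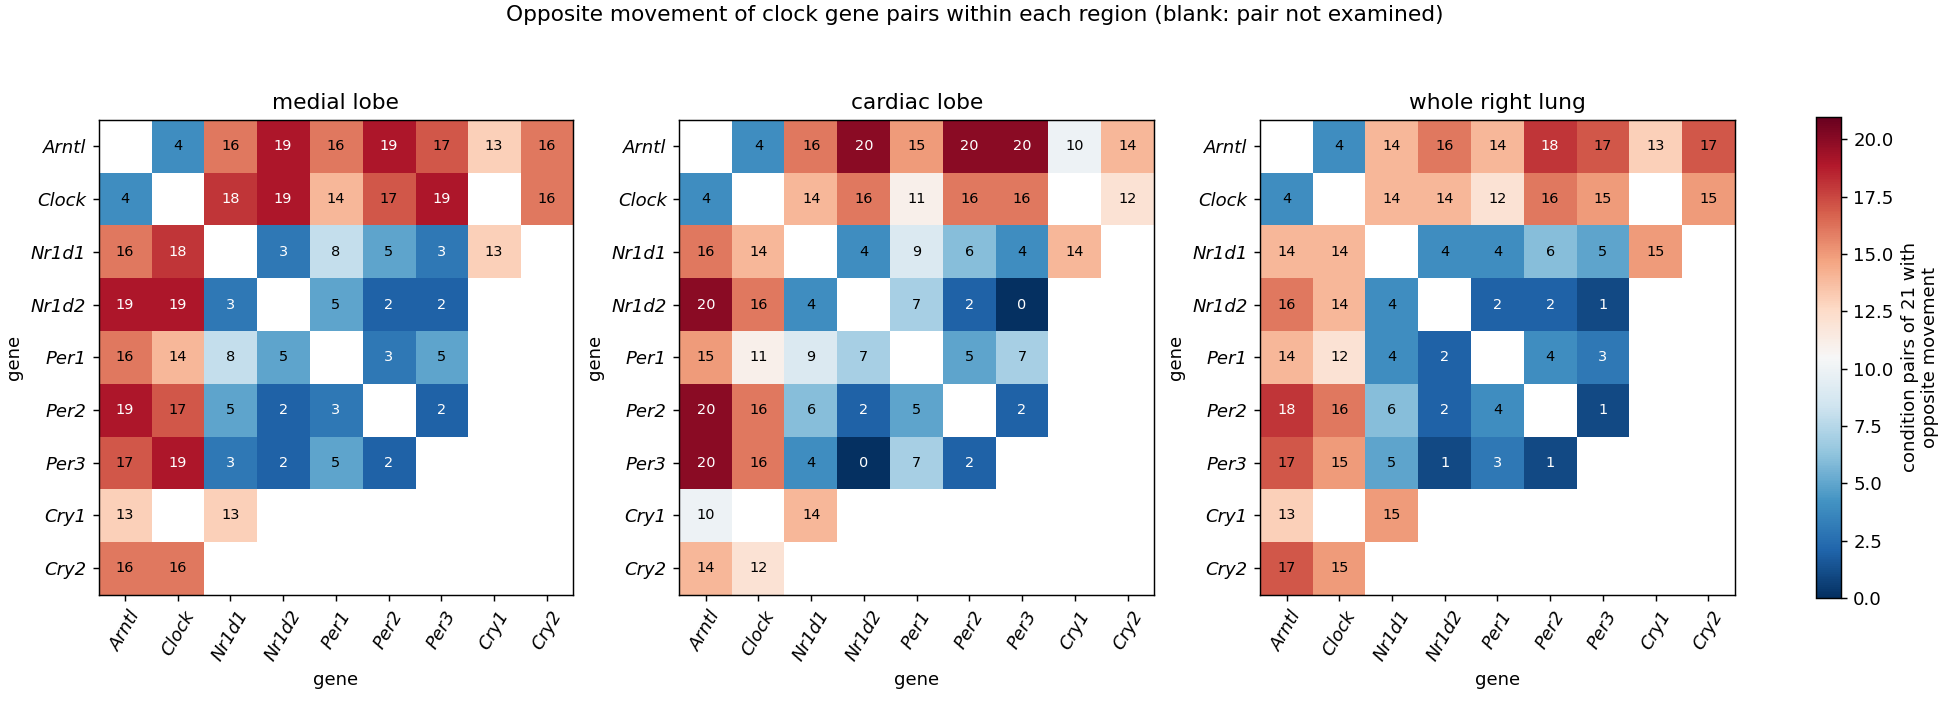
Number of the 21 condition pairs in which the genes of a pair moved in opposite directions, in the medial lobe, cardiac lobe and whole right lung; blank cells were not examined. The Arntl and Clock cells against the Per and Nr1d genes run from 11 to 20, and those among the Per and Nr1d genes from 0 to 9.

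Correlations over the 7 conditions of a region formed a family of 75 relations, 25 gene pairs in 3 regions, with exact two-sided permutation p adjusted over the 75. Arntl was left out of them, because in every region its values fell into 2 clusters, with day 14 and sham above a gap of 47.4% to 73.0% of its range, and too few arrays remain within a cluster to test the relation. In single regions a gap over 40% also parted the values of Per3 (49.2%) and Nr1d2 (56.7%) in the medial lobe, of Per2 in the whole lung (57.8%) and of Nr1d1 in the cardiac lobe (43.6%). The first 3 of these set day 14 and sham below the other conditions. In the whole lung a gap of 61.4% set the day 56 array of Clock below the rest. No r is given for those genes in those regions.

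Without Arntl, 17 of 18 antiphase relations had a negative r and 4 passed, all of Clock in the medial lobe, where 2 of the 4 were with Per3 and Nr1d2 and cross the gaps just named. Judged in each region alone, which was chosen after seeing the data, 9 antiphase relations remained free of such gaps, all 9 were negative and 2 passed. They were Clock with Nr1d1 and Per2, with r of -0.92 and -0.84 and Spearman's rho of -0.79 and -0.82. Their exact permutation p was 0.0046 and 0.020 for r, adjusted to 0.019 and 0.048. For rho the exact permutation p was 0.048 and 0.034, adjusted to 0.11 and 0.10. Without the 2 arrays farthest from the median of Clock these r were -0.63 and -0.66. In the cardiac lobe and whole lung no Clock relation passed. Without the 2 arrays of divergent small RNA level, 9 of the 18 passed and all 18 were negative.

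All 30 in-phase relations without Arntl were positive and 17 of them passed. Of the 15 that were free of such gaps in their own region, all were positive and 9 passed. The closest was Per3 with Nr1d2, at r of 0.99 and 0.97 and rho of 1 and 0.96 in the cardiac lobe and whole lung. The exact permutation p of r was 0.00020 and 0.00040, adjusted to 0.012 in both, and that of rho adjusted to 0.030 and 0.035. Leaving out the 2 arrays farthest from the median of Per3 gave r of 1.0 and 0.93. Per1 with Nr1d1 had r of 0.23 in the medial lobe and 0.85 in the whole lung. The exact permutation p for those was 0.61 and 0.018, adjusted to 0.68 and 0.046, and rho was 0.39 and 0.79. Without the 2 arrays farthest from the median of Per1 they were -0.24 and 0.55.

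Genes directly downstream of the loop were read from a list of 7 output factors, all of which were measured. All 7 passed the F test over the 7 conditions, against the 7.76% given above. After sham surgery 4 of 7 were called lower than at day 0 (0.206% of all genes) and none was called higher. At day 14, 5 of 7 were called lower (0.707% of all genes). The median differences were -1.26 after sham and -1.01 at day 14. Dbp, a D-box activator under E-box control, was 10.24, 10.26 and 10.23 at day 0, 8.18, 8.02 and 8.23 at day 14, and 8.14, 7.92 and 7.08 after sham, so that day 0 lay above both other conditions, whose ranges overlapped. It fell by 2.10 at day 14 and by 2.53 after sham (adjusted p 0.00019 and 3.6e-05) and rose by 1.98 from day 14 to day 28 (adjusted p 0.00073).

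Ciart, a repressor of the ARNTL and CLOCK pair, was 9.10, 9.22 and 8.89 at day 0 and 7.03, 6.90 and 7.48 at day 14. It fell by 1.93 at day 14 and by 1.90 after sham (adjusted p 0.0014 and 0.0021). Tef, a relative of Dbp, fell by 1.28 and 1.26, and Bhlhe41, an E-box repressor, by 1.01 and 1.39. Nfil3, which represses through the same D-box, was 6.82, 6.94 and 6.73 at day 0 and 7.44, 7.92 and 8.62 at day 3. It was the 1 output factor called higher than at day 0, by 1.16 at day 3 and 0.91 at day 7 (adjusted p 0.016 and 0.048). At day 14 and after sham its differences were 0.99 and 1.26 and did not pass (adjusted p 0.0997 and 0.062).

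**Figure D5:**
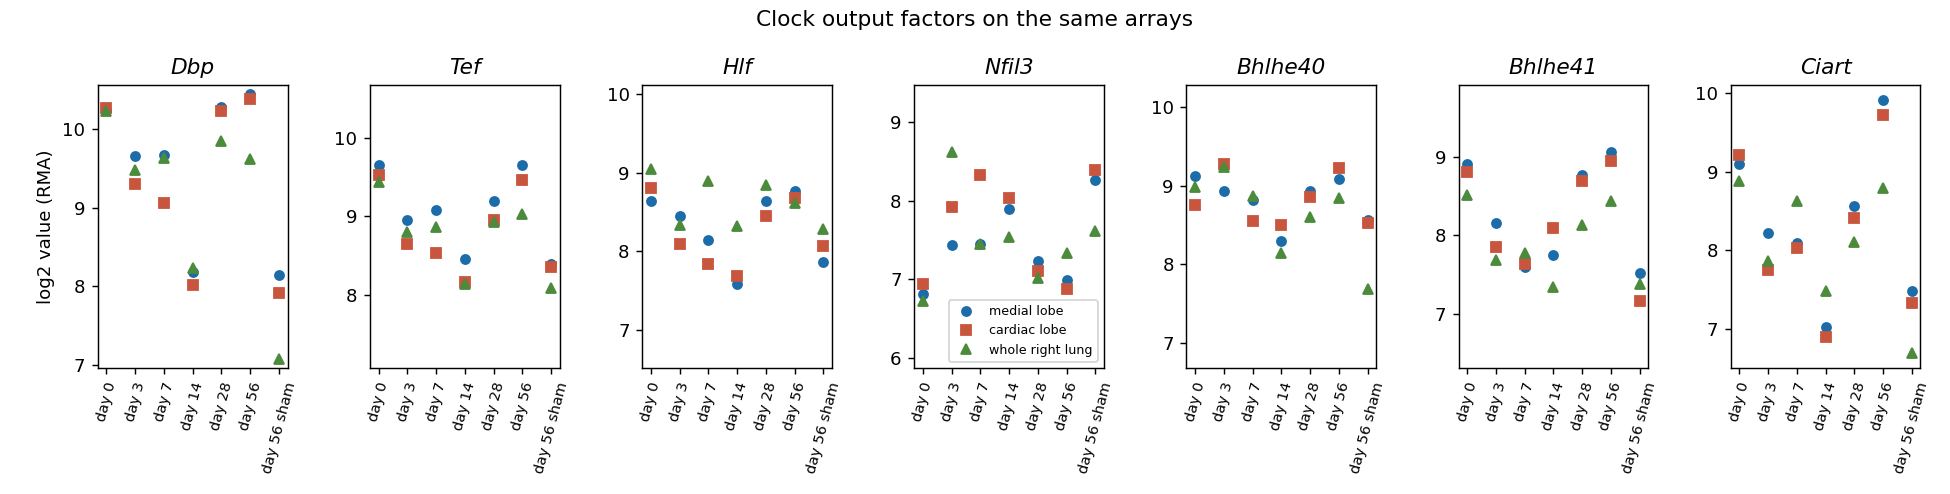
Log2 RMA value (vertical axes) of the 7 clock output factors in every array by condition (horizontal axes) and region (marker). Dbp, Tef and Ciart are low at day 14 and after sham surgery, and Nfil3 is low at days 0, 28 and 56.

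Of 13 measured modifiers of clock proteins (kinases, ubiquitin ligase parts and others), 2 passed the F test over the 7 conditions, which 7.76% of all genes passed. Usp2, a deubiquitinase, fell by 1.0 at day 14 (adjusted p 0.018), and Cipc, an inhibitor of CLOCK, fell by 0.41 after sham (adjusted p 0.034). The F test was passed by 0 of the 3 measured members among Arntl2 and the ROR genes. Of 10 genes that cycle in many tissues 6 passed, against the same 7.76%, and of these Wee1 and Tspan4 fell by 1.05 and 0.92 at day 14 and by 0.87 and 1.07 after sham (adjusted p 0.0039, 0.00094, 0.028 and 0.00020). Rbm3 fell by 0.63 and 0.71 (adjusted p 0.013 and 0.015). Herpud1 fell by 0.73 at day 14 (adjusted p 0.0093) and differed by -0.36 after sham (adjusted p 0.37). Leo1, the 1 called higher, rose by 0.42 at day 14 and 0.50 after sham (adjusted p 0.036 and 0.029). Of 11 glucocorticoid-responsive genes, Per1 among them, 2 passed, again beside 7.76% of all genes, Klf9 and Tsc22d3. Against day 0, 3 of the 11 were called at day 3 (1 higher, 2 lower, with 6.7% of all genes called). At day 7, 2 were called (1 higher, 1 lower, with 8.69% of all genes called), and at day 14 1, lower (1.2%). None of the 11 was called between sham and day 0, where 0.381% of all genes were.

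Over the 21 arrays, after region means were subtracted, the genes most like Arntl were Fam124b, Rasl11a, Ccnjl, Hsp90aa1 and Klhl13, with Pearson r of 0.95, 0.93, 0.91, 0.90 and 0.89. The most opposite were Tspan4, Dbp and Ciart, at -0.95, -0.94 and -0.89. Those most like Nr1d1 were Dbp, Bhlhe41, Tef, Rbm3 and Dnajc6, at 0.90, 0.85, 0.84, 0.84 and 0.84, and the most opposite were the chaperone genes Hsph1, Dnajc3 and Hsp90b1, at -0.95, -0.93 and -0.90. These r describe arrays that share conditions, those for Arntl span both of its clusters and so carry the split of day 14 and sham from the rest, and no test is attached.

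Markers of other cell types moved under some of the same conditions. The 8 measured T and NK cell markers averaged 7.43 to 7.80 per array at day 0, 6.73 to 7.06 at day 3, 6.58 to 6.74 at day 7, 6.64 to 6.95 at day 14 and 6.84 to 7.06 after sham. Of the 8, those called lower than at day 0 numbered 5, 8, 4 and 2 in the order of the later conditions. In those comparisons 2.73%, 4.97%, 0.707% and 0.206% of all genes were called lower. The 6 B and plasma cell markers averaged 7.77 to 8.44, 7.22 to 7.76, 6.98 to 7.63, 7.18 to 7.51 and 7.28 to 7.90 under the same conditions. Those called lower than at day 0 numbered 4, 4, 3 and 0 of the 6, beside the same shares of all genes. Within that list Jchain went the other way after pneumonectomy, from a mean of 7.19 at day 0 to 8.28 at day 7 and 7.91 at day 14. All its other genes had lower means than at day 0 under every later condition. The 8 macrophage and monocyte markers averaged 8.85 to 8.94 at day 0, 9.67 to 10.33 at day 3 and 9.07 to 10.17 at day 7. At day 3, 4 of the 8 were called higher (3.97% of all genes). At day 7, 3 of the 8 were called higher. In that comparison 8.69% of all genes were called in either direction, of which 4.97% of all genes were lower. These markers averaged 9.06 to 9.57 at day 14 and 8.69 to 8.81 after sham. None of them was called there, beside 1.2% and 0.381% of all genes.

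At day 28, Arntl, Per2, Per3 and Nr1d2 had left their day 14 levels. On that day the T and NK markers averaged 6.85 to 7.54 and the B and plasma markers 7.78 to 8.50. None of either list was called against day 0, where 0% of all genes were. At day 56 after pneumonectomy, when no member was called against day 0, these lists averaged 6.74 to 6.91 and 7.64 to 8.02. Of their genes 2 of 8 and 1 of 6 were called lower, where 0.0903% of all genes were called. The B and plasma averages include Jchain, whose means at days 28 and 56 after pneumonectomy were 8.64 and 9.19. The 6 neutrophil markers averaged 7.81 to 8.19 at day 0, 8.65 to 9.19 at day 3, 8.01 to 9.32 at day 14 and 8.30 to 9.71 after sham. At days 7, 28 and 56 after pneumonectomy they averaged 7.67 to 8.09, 7.71 to 8.19 and 7.23 to 8.01. None of the 6 was called at day 14 or after sham against day 0, where 1.2% and 0.381% of all genes were. The 9 mitosis genes averaged 6.62 to 7.11 at day 0, 7.89 to 9.28 at day 3 and 8.08 to 8.39 at day 7. None was called at day 14 or after sham, beside the same shares of all genes. The part of these cell types in the clock gene differences was not tested.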

How the data were processed

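RNA from 21 samples was measured on 1 Affymetrix array each. The authors deposited log2 values of 35556 probe sets, made with RMA per the submitters' processing notes; for RMA, version and settings were not given in the sources used here, where only the name appears. The 7 arrays of a region and the 3 of a condition were grouped from the labels. The platform annotation gave 1 symbol to 21789 probe sets, several to 1621 and none to 12146, and 21698 of the first kind matched RefSeq. For 999 genes with several probe sets the one with the highest mean was used, and every clock gene found had 1. No array column lacked a sample. The number of arrays limits the precision.

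The deposited log2 values were fitted in limma 3.58.1 (R 4.3.3) with condition and region as additive terms over 19938 genes, no filter on dim genes, and Benjamini-Hochberg adjustment over all genes in each comparison at 0.05. Permutations, counts and figures were made in Python 3.11.15. The linear model was tested on simulated data with independent noise on each array, which does not cover arrays that share animals or pools. All members were named. Genes most like Arntl or Nr1d1 were the 5 with the highest and the 3 with the lowest r, without predicted genes. From other lists up to 4 genes passing the F test were named by size, and markers were given by counts and ranges. For the output factors 5 were named, and Nfil3, like Leo1, was added after its values were seen as the one called higher. Alternatives were the region term, probe set choice, a brightness filter, the prior, 2 scalings, the lobes alone, only the arrays compared, and leaving out arrays. The members and lists were chosen with earlier results of these data known.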

Additional observations from a re-analysis of the deposited data

How the results depend on the processing

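The day 14 and sham calls of Arntl, Per2, Per3, Nr1d1 and Nr1d2 against day 0 held under every alternative run in which the gene was tested (the brightness filter leaves out Arntl and Cry1). Of called member differences, other alternatives kept 480 and lost 49, leaving out 1 array kept 994 and lost 161, and none reversed. Members called at day 3 against day 0 numbered 3 with no region term or with brighter genes only. At day 7 they numbered 2 with no region term, 3 with centred arrays, with quantile normalization or without the 2 arrays of divergent small RNA level, and 0 with only the arrays compared. At day 28 against day 0 they numbered 2 without those 2 arrays. Against sham they numbered 1 at day 7 and 2 at day 28 with only the arrays compared, and 1 at day 14 with the lobes alone or without the 2 arrays. From day 7 to 14 they numbered 2 with no region term and 0 with only the arrays compared, and from day 28 to 56 they numbered 1 (Per2) with the lobes alone. For lobes against whole lung they numbered 1, lower, with centred arrays and 0 with quantile normalization. Passing antiphase relations numbered 9 without the 2 arrays. With clusters judged in each region alone, 2 antiphase and 9 in-phase relations passed, among fewer relations. The Per1 difference of day 7 from sham turned from 0.02 to -0.82 in the lobes alone (limma adjusted p 0.019). The cause of these changes was not tested.

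Leaving out 1 array gave 2 to 7 members called at day 3, 2 to 5 at day 7, 6 to 7 at day 14, 0 at days 28 and 56, and 5 to 7 for sham, all against day 0. Against sham it gave 4 to 7, 4 to 5, 0, 3 to 6 and 5 to 6 in day order. For successive steps it gave 0, 1 to 4, 1 to 5 and 0. The F tests gave 7 to 8 and 6 to 8, lobes against whole lung 0 to 4, and the cardiac and medial lobes and both interactions 0. Region, the 1 factor that arrays of different conditions share in the labels, is a term of the fit, and the counts with no region term are given above. With 1 array per region and condition, a difference between regions at a single day has no test.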
